A study of Mus musculus with 8 samples.

Results

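Glycolysis splits glucose into pyruvate and yields ATP without oxygen. Glucose enters the cell through facilitative transporters, is trapped by phosphorylation, committed by phosphofructokinase, split into 3-carbon sugars and converted stepwise to pyruvate, which lactate dehydrogenase can reduce to lactate. Articular cartilage has no blood vessels and its chondrocytes live at low oxygen, where they draw much of their energy from this pathway. The 10 genes described here encode a transporter and enzymes along that route: Slc2a1, Hk1, Hk2, Pfkl, Pfkp, Aldoa, Pgk1, Eno1, Pkm and Ldha. They were taken by name, as genes of these steps, and are 10 of 50462 gene identifiers in the deposited table. All 10 were present and all 10 received an adjusted p-value.

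RNA was sequenced from cartilage dissected from the medial side of the knee of male C57Bl/6J mice, labelled as wild-type and as chondrocytes. The 4 naive libraries came from untreated animals at 11 weeks of age (day 0). The 4 DMM libraries came from animals whose left medial meniscus was destabilised by cutting its tibial ligament at 11 weeks and which were killed 42 days later. No sham-operated group and no untreated group of the later age was included, so surgery and 6 weeks of ageing cannot be told apart. The study's methods describe individual mice, so each library is taken as 1 animal.

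Library totals ran from 12479443 to 16548002 estimated counts. The defining chondrocyte markers (Acan, Col2a1, Sox9 and others) were detected, but the 14 together held only 0.287% to 0.481% of counts in the naive libraries and 0.759% to 1.33% in the DMM libraries. Genes of the neutrophil lineage held more in the naive libraries, at 0.909% to 1.27%, and 0.428% to 0.900% in the DMM libraries. Of the 12 neutrophil genes, 11 were lower after DMM (DESeq2 Wald test, adjusted p of 0.05 or less), as were 10 of 11 erythroid genes, whose summed ranges overlapped (1.10% to 1.83% naive, 0.608% to 1.28% DMM). All 9 osteoblast and osteocyte markers were higher (0.135% to 0.192% naive, 0.313% to 0.568% DMM), as were 7 of 13 tested chondrocyte markers. No marker of these lists was at 0 in every library. The part of this shift in marker levels in the results below was not tested. In bulk tissue, fewer cells of a type and less RNA per cell cannot be told apart. A single identifier without a gene symbol took 10.1% to 17.9% of counts in the naive libraries and 4.31% to 8.65% in the DMM libraries, which matters for how the libraries are scaled.

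Whether glycolytic genes changed between naive and DMM cartilage was tested gene by gene with DESeq2 on the whole table. Normalised counts below are estimated counts divided by the size factor of the library. A gene was called at an adjusted p of 0.05 or less together with a change of at least 1.5-fold. None of the 10 glycolysis genes was called, against 13.7% of all 17760 genes tested (5.92% lower and 7.75% higher in DMM cartilage). The count of genes called was also 0 by edgeR (background 11.3%) and by limma-voom (11.7%). With no demand on fold, 3 of 10 passed the adjusted p, beside 22.6% of all genes, and 4 of 10 had an unadjusted p under 0.05, beside 33.0% of all genes. The 3 that passed were Hk1, Hk2 and Eno1, all lower after DMM, where 11.2% of all genes were lower and 11.4% higher by the same rule. The same 3 genes passed by edgeR and by limma-voom, where 17.7% and 18.1% of all genes did. The median log2 fold change of the 10 was -0.17, beside -0.02 over all genes tested, and 6 of the 10 were negative. With the total count as size factor, the median over all genes stood at 0.14 and that of the 10 at -0.02. The genes past the adjusted p were then Pfkl and Pfkp, both higher. With the most abundant identifier left out of that total, 3 passed, again Hk1, Hk2 and Eno1. When near-identical copies were summed, a setting added after the data were seen, 2 passed. Eno1 then did not (log2 -0.03, adjusted p = 0.909 by DESeq2).

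**Figure D1:**
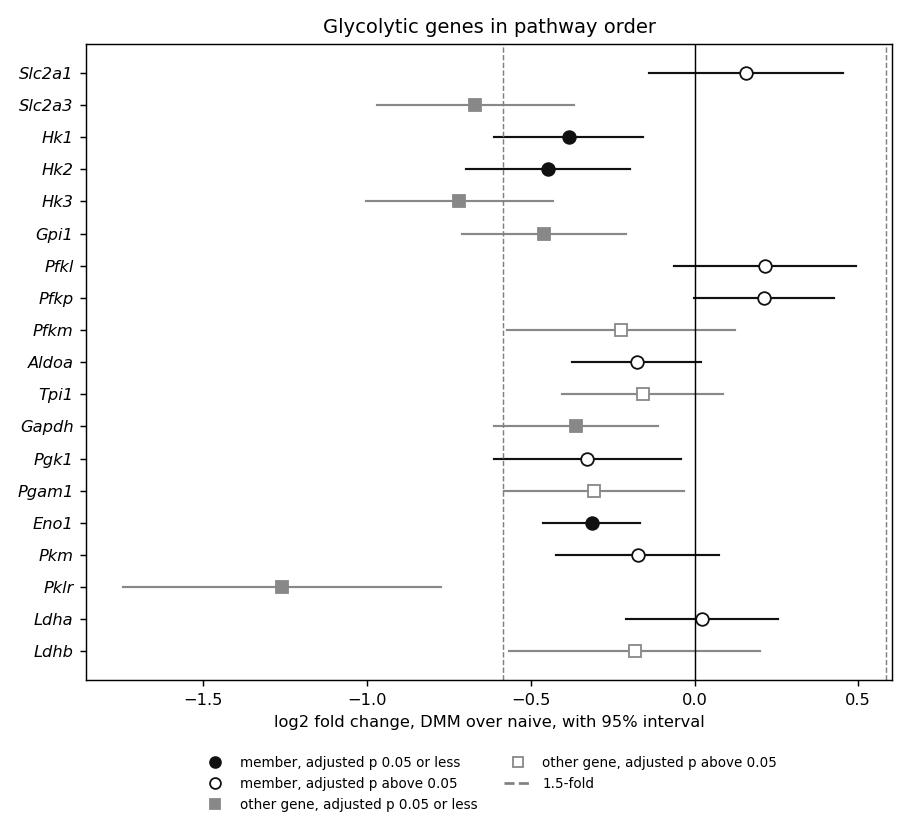
Log2 fold change (DMM over naive, horizontal axis) of the 10 glycolysis genes (circles) and related genes of the same steps (squares), in pathway order from top to bottom; bars are 95% intervals from DESeq2, filled symbols have an adjusted p of 0.05 or less, and dashed lines mark 1.5-fold. Among the 10 genes only Hk1, Hk2 and Eno1 are filled, and none of their points lies beyond the 1.5-fold line.

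Slc2a1 encodes GLUT1, a facilitative transporter that brings glucose into most cells (GRCm38, chr4:119108711-119137983, plus strand). Its normalised counts were 293, 255, 315 and 293 in naive libraries 1 to 4 and 260, 353, 305 and 373 in DMM libraries 1 to 4. The groups overlapped, with DMM library 1 at the level of the lower naive libraries and DMM libraries 2 and 4 above every naive one. The naive mean was 289 ± 24.6 and the DMM mean 323 ± 50.3 (SD, n = 4 each). The log2 fold change was 0.16 with a 95% interval of -0.14 to 0.45 (DESeq2, adjusted p = 0.519). That interval leaves out a 1.5-fold change in either direction, which is 0.585 on the log2 scale.

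The related transporter Slc2a3 (GLUT3), which has a higher affinity for glucose, was the more abundant of the pair and was called lower. It averaged 1513 ± 277 normalised counts in naive and 951 ± 102.5 in DMM cartilage (SD, n = 4 each; log2 fold change -0.67, SE 0.153, adjusted p = 0.000233). Under total-count scaling it stayed lower by adjusted p but short of 1.5-fold (log2 -0.51, adjusted p = 0.00472). Measured per kilobase of transcript, Slc2a1 made up 15.2% to 23.9% of the sum of these 2 transporters in the naive libraries. In the DMM libraries that share was 27.1% to 32.4%, with no overlap. The mean share was 19.2% ± 3.80 in naive and 29.1% ± 2.51 in DMM cartilage (SD, n = 4 each). Of the other transporters, Slc2a10 and Slc2a12 were called higher at low levels, Slc2a10 from 59.7 ± 14.0 to 111 ± 20.7 normalised counts (SD, n = 4 each; adjusted p = 0.00209). Slc2a10 passed the adjusted p in all 8 fits that each left out 1 library, and Slc2a12, whose groups overlapped, in 5 of 8.

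**Figure D2:**
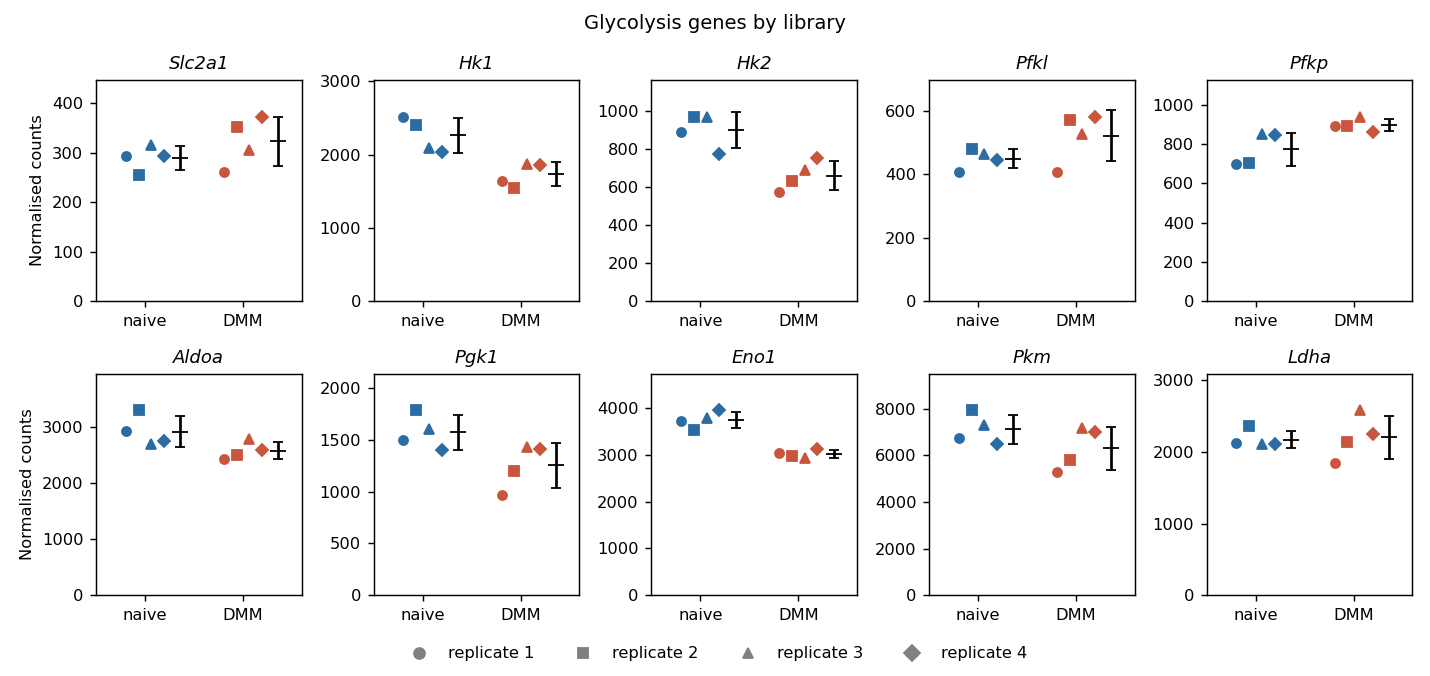
Normalised counts (vertical axis, starting at 0) of each of the 10 glycolysis genes in every library, naive and DMM side by side; points are libraries and the crossed bars beside them are means and SD. The groups are apart for Hk1, Hk2 and Eno1 (DMM lower) and, narrowly, for Pfkp (DMM higher), and overlap for the other 6 genes.

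Hexokinases phosphorylate glucose and so hold it inside the cell. Hk1, the form found in most tissues and bound to mitochondria, lies on the minus strand at chr10:62268855-62379908. It had 2519, 2408, 2096 and 2034 normalised counts in naive libraries 1 to 4 and 1645, 1551, 1875 and 1865 in DMM libraries 1 to 4. Every DMM library lay below every naive library. The means were 2264 ± 236 and 1734 ± 162 (SD, n = 4 each), a fold change of 0.766 (log2 -0.38, SE 0.115, adjusted p = 0.00692 by DESeq2). Without naive library 1 the log2 fold change was -0.33 and the adjusted p was over the threshold (0.0558). It stayed under 0.05 in the other 7 fits that each left out 1 library.

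Hk2, the inducible hexokinase typical of muscle, fat and many proliferating cells, lies on the minus strand at chr6:82725025-82774454. Its normalised counts were 887, 970, 969 and 774 in the naive and 572, 630, 688 and 751 in the DMM libraries. The groups did not overlap, although naive library 4 and DMM library 4 were close. Means were 900 ± 92.2 and 660 ± 76.7 (SD, n = 4 each), a fold change of 0.734 (log2 -0.45, SE 0.128, adjusted p = 0.00441 by DESeq2), and the adjusted p stayed under 0.05 in all 8 fits that each left out 1 library. Among the 10 genes Hk2 had the most negative log2 fold change.

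With total counts as the scaling, neither passed the adjusted p: log2 -0.23 for Hk1 (adjusted p = 0.157) and -0.29 for Hk2 (adjusted p = 0.0921). When the single most abundant identifier was left out of the total, a setting added after the data were seen, the values were -0.36 (adjusted p = 0.00292) and -0.42 (adjusted p = 0.0048).

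Hk3, a hexokinase found mainly in blood cells of the myeloid line, was called lower by more, from 1552 ± 208 to 944 ± 144 normalised counts (SD, n = 4 each; log2 -0.72, SE 0.146, adjusted p = 3.03e-05). Under total-count scaling it was at log2 -0.56 (adjusted p = 0.000878), short of 1.5-fold. The summed share of the neutrophil markers was also lower in all 4 DMM libraries than in any naive one, although single markers such as Ltf, Mmp8 and Retnlg overlapped between the groups. The markers' part in the hexokinase values was not tested. Per kilobase, Hk1 made up 45.1% ± 2.10 of the 3 hexokinases in naive and 49.6% ± 1.80 in DMM cartilage (SD, n = 4 each), and Hk3 fell from 41.0% ± 1.53 to 35.7% ± 1.49, with no overlap between the groups for either gene. The share of Hk2 overlapped, at 13.9% ± 1.08 and 14.6% ± 0.696 (SD, n = 4 each).

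**Figure D3:**
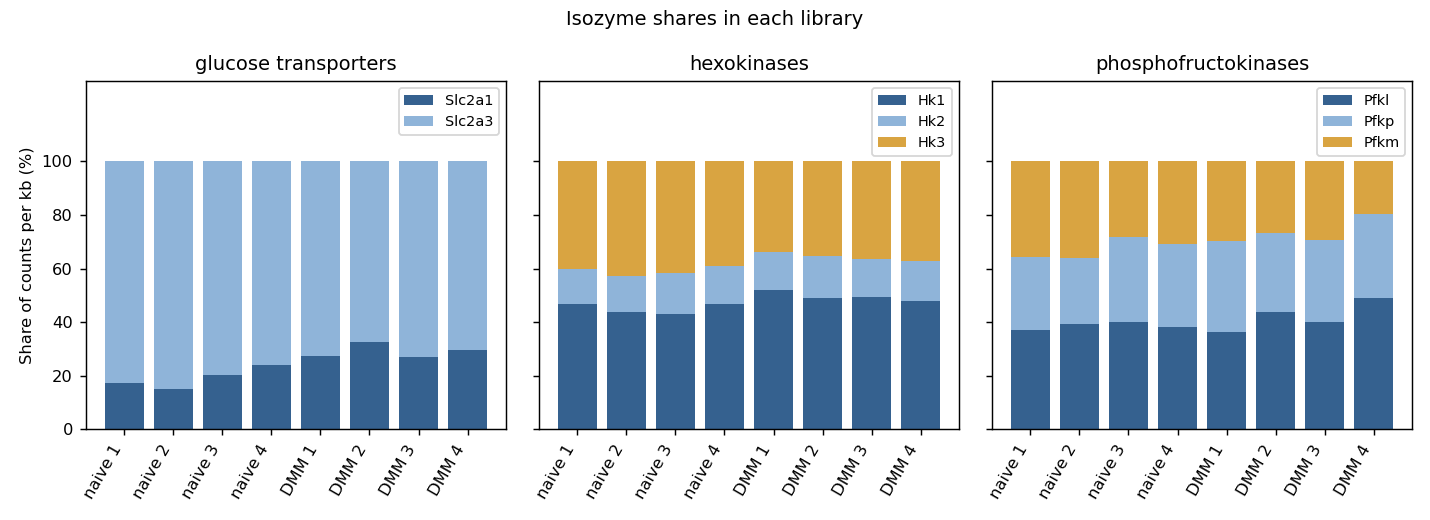
Share of each isozyme among glucose transporters, hexokinases and phosphofructokinases (percent of the summed normalised counts per kilobase, vertical axis) in the 4 naive and 4 DMM libraries; the stacked bars are single libraries. The shares of Slc2a1 and Hk1 are higher in every DMM library than in any naive one, while those of Hk2, Pfkl and Pfkp overlap.

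Phosphofructokinase catalyses the committed step of glycolysis and is built from liver (Pfkl), platelet (Pfkp) and muscle (Pfkm) type subunits. Pfkl (chr10:77986947-78010083, minus strand) had 409, 480, 464 and 446 normalised counts in the naive and 408, 571, 528 and 582 in the DMM libraries. DMM library 1 stood level with the lowest naive library, and the other 3 DMM libraries lay above all naive ones. The means were 450 ± 30.7 and 522 ± 79.6 (SD, n = 4 each; log2 0.22, 95% interval -0.06 to 0.49, adjusted p = 0.296 by DESeq2).

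Pfkp (chr13:6579768-6648777, minus strand) had 697, 704, 849 and 844 normalised counts in the naive and 891, 893, 938 and 861 in the DMM libraries. All 4 DMM libraries lay above all 4 naive ones, by a margin that was small between naive libraries 3 and 4 and DMM library 4. Means were 773 ± 84.1 and 896 ± 32.0 (SD, n = 4 each), and the log2 fold change of 0.21 (95% interval -0.0019 to 0.43) did not pass the threshold (adjusted p = 0.156 by DESeq2). Groups were likewise apart for 22.2% of all genes tested, and for 4 of the 10 here (Hk1, Hk2, Pfkp and Eno1).

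Both phosphofructokinase genes passed the adjusted p under total-count scaling, at log2 0.37 for Pfkl (adjusted p = 0.044) and 0.36 for Pfkp (adjusted p = 0.0289). Neither passed when the most abundant identifier was left out of the total, a setting added after the data were seen. The values were then 0.24 for Pfkl (adjusted p = 0.238 by DESeq2) and 0.23 for Pfkp (adjusted p = 0.204). Pfkm was at 294 ± 38.1 and 251 ± 49.3 normalised counts (SD, n = 4 each; adjusted p = 0.41). As shares of the 3 subunit transcripts per kilobase, Pfkl went from 38.7% ± 1.29 to 42.3% ± 5.48 and Pfkp from 28.6% ± 3.26 to 31.3% ± 1.89 (SD, n = 4 each), with overlapping groups for both. These shares rest on transcript lengths of 3730 bases for Pfkl, 8681 for Pfkp and 2879 for Pfkm.

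Aldoa encodes aldolase A, which splits fructose bisphosphate into 3-carbon sugars (chr7:126795234-126800751, minus strand). Its normalised counts were 2934, 3291, 2693 and 2741 in the naive and 2435, 2502, 2781 and 2592 in the DMM libraries. The 3 lowest values were DMM libraries, but DMM library 3 lay within the naive range. Means were 2915 ± 272 and 2577 ± 150 (SD, n = 4 each; log2 -0.18, 95% interval -0.37 to 0.02, adjusted p = 0.207 by DESeq2). A second identifier with the same symbol, just upstream of Aldoa, held at most 8 estimated counts in any library and is left out of these values.

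Pgk1 encodes phosphoglycerate kinase, the first step of the pathway that returns ATP (chrX:106187100-106203699, plus strand). It had 1495, 1784, 1608 and 1400 normalised counts in the naive and 971, 1199, 1432 and 1408 in the DMM libraries. DMM libraries 1 and 2 were below every naive library, and DMM libraries 3 and 4 were inside the naive range. Means were 1572 ± 165 and 1252 ± 215 (SD, n = 4 each; log2 -0.33, SE 0.146), which did not pass (unadjusted p = 0.0249, adjusted p = 0.0905 by DESeq2). Without DMM library 3 it did, at log2 -0.40 (adjusted p = 0.0444). Of the 31-base words in its transcripts, 54.7% also occur in other annotated genes, but the 3 genes that share at least 50% of their words with it held at most 1 estimated count in any library, and summing them with Pgk1 left the log2 fold change at -0.33 (adjusted p = 0.0902), a setting added after the data were seen. The share of words found in other genes was 34.7% for Pkm, 28.5% for Eno1, 19.6% for Ldha and 17.0% for Aldoa, and 0.2% to 5.3% for the other 5 genes.

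Eno1 encodes alpha-enolase, which makes phosphoenolpyruvate (chr4:150236721-150248879, plus strand). Its normalised counts were 3726, 3543, 3798 and 3951 in the naive and 3034, 2985, 2943 and 3121 in the DMM libraries. The groups were well apart and each was tight. Means were 3755 ± 170 and 3021 ± 76.4 (SD, n = 4 each), a fold change of 0.804 (log2 -0.31, SE 0.0752, adjusted p = 0.000483 by DESeq2). This was the smallest adjusted p among the 10 genes, and it stayed under 0.05 in all 8 fits that each left out 1 library.

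Eno1 has an intronless copy on chromosome 18, Eno1b, and how reads were divided between them was not tested. Of the 31-base words in Eno1, 28.5% occur in other genes. Of the 31-base words in Eno1b, 81.8% also occur in Eno1. Eno1b had 57.2, 833, 554 and 122 normalised counts in the naive and 109, 893, 1645 and 1492 in the DMM libraries. It varied widely inside each group, and the highest values, above all naive libraries, were in DMM libraries 2 to 4. Its log2 fold change was 1.40 (SE 1.01, adjusted p = 0.354).

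When the estimated counts of Eno1 were summed with those of Eno1b and Gm4735, a further copy, the lower level in DMM was gone. This setting was added after the data were seen. The sums were 3783, 4614, 4488 and 4084 normalised counts in the naive and 3144, 3978, 4752 and 4704 in the DMM libraries. DMM libraries 3 and 4 were then above every naive library and DMM library 1 below them all. Means were 4242 ± 380 and 4144 ± 755 (SD, n = 4 each; log2 -0.03, 95% interval -0.32 to 0.25, adjusted p = 0.909 by DESeq2). Under total-count scaling, Eno1 alone also missed the adjusted p (log2 -0.16, adjusted p = 0.29). With the most abundant identifier left out of that total, it passed (log2 -0.29, adjusted p = 0.0247 by DESeq2).

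**Figure D4:**
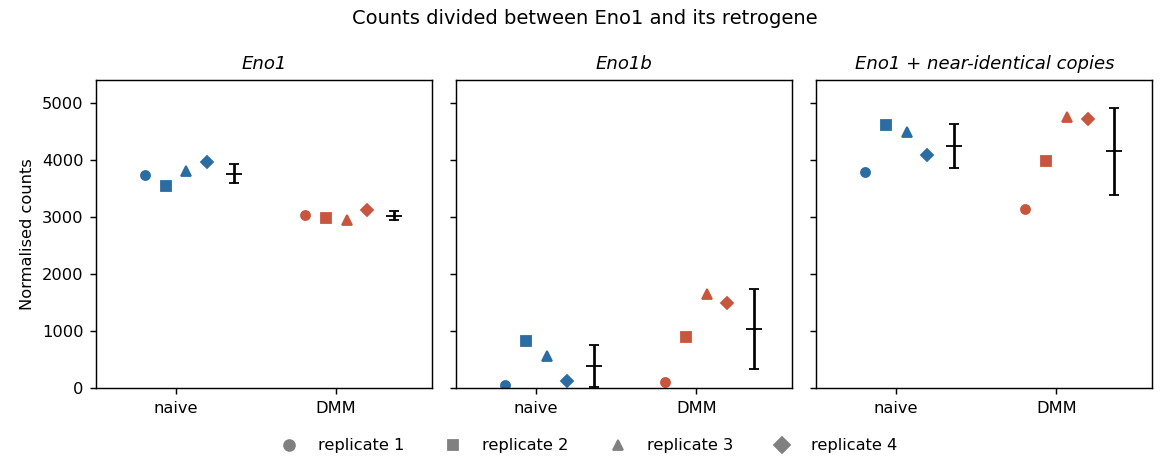
Normalised counts (vertical axis) of Eno1, Eno1b and the sum of Eno1 with its near-identical copies in each naive and DMM library; points are libraries and the crossed bars are means and SD. The groups are apart for Eno1 but overlap for Eno1b and for the sum.

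Pkm encodes the muscle-type pyruvate kinase, whose M1 and M2 forms arise by splicing and are not separated in gene counts (chr9:59656368-59679375, plus strand). It had 6759, 7925, 7281 and 6504 normalised counts in the naive and 5271, 5801, 7165 and 6997 in the DMM libraries. DMM libraries 1 and 2 were below every naive library, and DMM libraries 3 and 4 were inside the naive range. Means were 7117 ± 628 and 6309 ± 921 (SD, n = 4 each; log2 -0.17, 95% interval -0.42 to 0.08, adjusted p = 0.363 by DESeq2).

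Pklr, the pyruvate kinase of liver and red blood cells, was called lower, from 281 ± 87.5 to 118 ± 24.8 normalised counts (SD, n = 4 each; log2 -1.26, SE 0.247, adjusted p = 1.4e-05). Per kilobase, Pkm accordingly made up 96.8% ± 0.860 of the pair in naive and 98.5% ± 0.224 in DMM cartilage (SD, n = 4 each), without overlap. Erythroid markers were lower in 10 of 11 tested, and their part in the value of Pklr was not tested.

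Ldha encodes the lactate dehydrogenase A subunit, which favours the reduction of pyruvate to lactate (chr7:46841475-46855627, plus strand). Its normalised counts were 2121, 2357, 2105 and 2111 in the naive and 1852, 2147, 2581 and 2254 in the DMM libraries. DMM library 1 was the lowest and DMM library 3 the highest of the 8, with the naive libraries between them. Means were 2174 ± 123 and 2208 ± 301 (SD, n = 4 each; log2 0.02, 95% interval -0.21 to 0.26, adjusted p = 0.926 by DESeq2). The sign turned without DMM library 3 (log2 -0.06). Relative to Ldhb, per kilobase, Ldha held 89.8% ± 1.74 of the pair in naive and 91.0% ± 1.36 in DMM cartilage (SD, n = 4 each), with overlapping groups.

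DMM library 1 was the lowest DMM library for 7 of the 10 genes (Slc2a1, Hk2, Pfkl, Aldoa, Pgk1, Pkm and Ldha), while DMM library 3 was the highest for 6 and DMM library 4 for the remaining 4. Among the naive libraries, library 2 was the highest for 6 genes (Hk2, Pfkl, Aldoa, Pgk1, Pkm and Ldha). DMM library 1 was also the one with the least neutrophil signal, at 0.428% of counts against 0.578%, 0.851% and 0.900% in DMM libraries 2 to 4. Chondrocyte markers were likewise lowest there among the DMM libraries, at 0.759% against 0.766%, 1.115% and 1.33%. Every other marker list had its lowest DMM share in another library. The skeletal muscle signal was highest in DMM library 1, at 0.0109% of counts. Whether these values bear on the order of the DMM libraries was not tested. As a share of all counts, the 10 genes together held 0.153%, 0.141%, 0.154% and 0.146% in the naive and 0.129%, 0.139%, 0.156% and 0.159% in the DMM libraries. The groups overlapped, with DMM library 1 lowest and DMM library 4 highest.

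Levels were compared between genes only as normalised counts per kilobase of transcript. In naive cartilage Pkm was highest, at 2927 ± 258, followed by Aldoa at 1882 ± 176, Eno1 at 1852 ± 83.7 and Ldha at 1231 ± 69.4 (SD, n = 4). Pgk1 (861 ± 90.4) and Hk1 (529 ± 55.1) came next, and Hk2 (163 ± 16.7), Pfkl (121 ± 8.24), Pfkp (89.1 ± 9.69) and Slc2a1 (88.6 ± 7.54) were lowest. The ranges over libraries overlapped only for the neighbours Aldoa and Eno1 and the neighbours Pfkp and Slc2a1.

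Among the genes ranked here, all 5 from aldolase onwards thus stood above the transporter, both hexokinases and both phosphofructokinase subunits. The steps between these genes did not all follow that split in naive cartilage. Tpi1, a step after aldolase, was level with Hk1 (526 ± 60.6 and 529 ± 55.1; SD, n = 4). Gpi1, a step before aldolase, had a mean of 1339 ± 161, above those of Ldha and Pgk1. Gapdh (3941 ± 457) and Pgam1 (778 ± 65.2), both after aldolase, did follow it. In DMM cartilage the order of the ranked genes was the same except that Pfkl (140 ± 21.3) stood above Hk2 (120 ± 13.9; SD, n = 4 each). Overlapping neighbours were then Eno1 and Ldha, Pfkl and Hk2, Hk2 and Pfkp, and Pfkp and Slc2a1, so the places of Pfkl and Hk2 did not differ beyond the spread between libraries. Levels per kilobase assume even read coverage along 1 transcript per gene. The transcript used for Pfkp had 8681 bases and that for Pfkl 3730. Before division by length, Pfkp (773) stood above Pfkl (450) in mean normalised counts of naive cartilage.

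**Figure D5:**
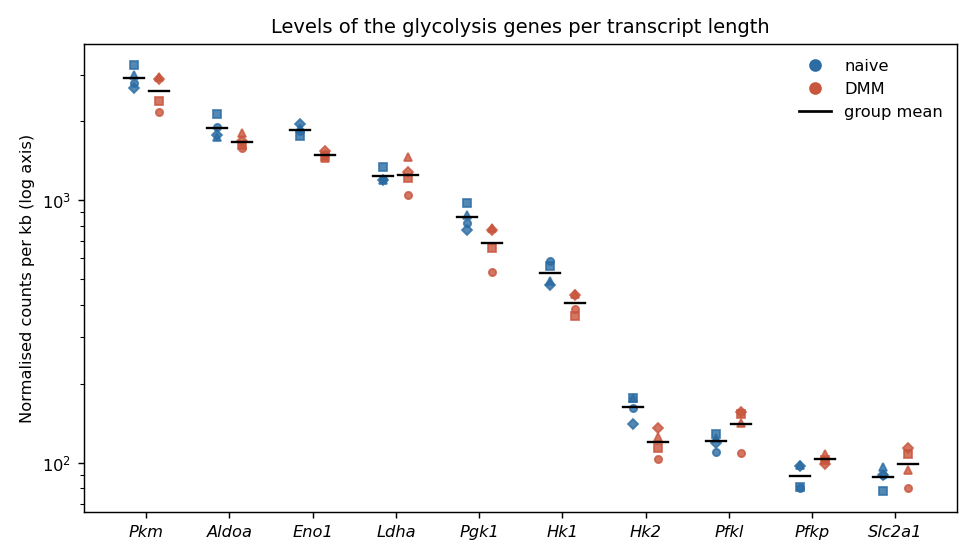
Normalised counts per kilobase of transcript (vertical axis, log scale) of the 10 glycolysis genes, ordered by naive level; points are libraries (blue naive, red DMM) and lines are group means. Levels run from Pkm on the left to Slc2a1 on the right, and only Hk2 and Pfkl change places between the group means.

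Of the 4 steps that lie between these genes, none was called by DESeq2 at 1.5-fold, and all 4 log2 fold changes were negative (median -0.33), Tpi1 no longer so under total-count scaling. Gpi1, glucose phosphate isomerase, went from 3861 ± 463 to 2807 ± 340 normalised counts (SD, n = 4 each; adjusted p = 0.0033). Gapdh, which precedes Pgk1, went from 5596 ± 649 to 4356 ± 549 (SD, n = 4 each; log2 -0.36, adjusted p = 0.0255), but missed the threshold by edgeR (adjusted p = 0.072), by limma-voom (0.0606), under total-count scaling (log2 -0.20, adjusted p = 0.197) and without naive library 2 or 3 or DMM library 1 or 2 (adjusted p from 0.0579 to 0.109). Pgam1 (log2 -0.31, adjusted p = 0.0993) and Tpi1 (log2 -0.16, adjusted p = 0.41) did not pass.

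Across 88 other genes of glucose metabolism, of which 82 were tested, 10 were called (2 higher, 8 lower) and 22 passed the adjusted p alone (6 higher, 16 lower). The background was 13.7% and 22.6% of all genes. The number called was 5 under total-count scaling and 6 without DMM library 1. In the pentose phosphate pathway, which branches off after hexokinase to make NADPH and ribose, 5 of 8 genes were lower by the adjusted p, 3 of them also under total-count scaling. These included G6pdx (log2 -0.64, adjusted p = 0.000647) and Tkt (log2 -0.62, adjusted p = 0.000648). Slc16a1, the lactate transporter MCT1, was called lower, from 1586 ± 297 to 924 ± 241 normalised counts (SD, n = 4 each; adjusted p = 0.000901), whereas Ldha was not. Of 6 genes listed as lactate and pyruvate transporters, only 1, Slc16a1, passed the adjusted p. Slc16a3, of the same list, was level (log2 -0.04, adjusted p = 0.87 by DESeq2). The part of the shift in marker levels in the value of Slc16a1 was not tested. Of 11 genes of pyruvate dehydrogenase and its kinases and of 5 tested gluconeogenic genes, 0 passed the adjusted p by DESeq2, edgeR or limma-voom, and 1 in each list had an unadjusted p under 0.05 by DESeq2. Under total-count scaling 1 of the 11 passed, Pdk2, a pyruvate dehydrogenase kinase (log2 0.55, adjusted p = 0.0246).

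Hypoxia-inducible factors bind DNA at a short core motif and raise many glycolytic genes at low oxygen. Prolyl hydroxylases such as EGLN1 mark their alpha subunits for removal. Of 8 genes of this system, 3 passed the adjusted p and all 3 were higher, beside 22.6% of all genes past it and 11.4% higher. In the DESeq2 fit none of the 3 reached 1.5-fold. Hif1a, the alpha subunit most closely tied to glycolytic genes, had 1587, 1615, 1892 and 1789 normalised counts in the naive and 2093, 2203, 2953 and 3032 in the DMM libraries. All DMM libraries were above all naive ones (log2 0.58, SE 0.147, adjusted p = 0.00109 by DESeq2). It lay just short of 1.5-fold there and past it by edgeR (log2 0.60, adjusted p = 0.0177) and under total-count scaling (log2 0.73, adjusted p = 0.0001). Epas1 (log2 0.39, adjusted p = 0.00942; over 0.05 without naive library 1 or DMM library 2) and Egln1 (log2 0.31, adjusted p = 0.00631) were also higher. HIF-1 alpha is controlled largely at the protein level, which was not measured here.

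The promoters of the 10 genes were searched for ACGTG on either strand, a form of the core of the hypoxia response element, in the 250 bases before each RefSeq start (GRCm38.p6). Other forms of the core were not searched. A palindromic CACGTG counts on both strands and is also an E-box, the site of MYC, USF and related factors. ACGTG was found for 6 of the 10 genes (Slc2a1, Hk2, Aldoa, Pgk1, Pkm and Ldha) and for 18.5% of 27025 genes with a window. Counted by window, it was in 7 of 17 windows of the 10 genes and in 16.6% of 32851 windows searched. Windows of a gene can overlap, and both matching Aldoa windows held the same genomic site. No window of Hk1, Pfkl, Pfkp or Eno1 held ACGTG. Of the 3 genes past the adjusted p, only Hk2 held a match, and whether matches bear on the levels was not tested. A match is a letter pattern and no measured binding. The stretches of 4 genes are shown because they differ in the number and spacing of matches, 5′ to 3′ on the gene's strand with matches in capitals: Ldha lies at chr7:46845644-46845789 (plus strand), Pgk1 at chrX:106186935-106186988 (plus), Hk2 at chr6:82774487-82774695 (minus) and Slc2a1 at chr4:119108694-119108728 (plus).
Ldha: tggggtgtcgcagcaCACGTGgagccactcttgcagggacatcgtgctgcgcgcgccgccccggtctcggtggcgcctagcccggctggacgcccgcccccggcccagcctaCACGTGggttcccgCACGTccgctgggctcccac
Pgk1: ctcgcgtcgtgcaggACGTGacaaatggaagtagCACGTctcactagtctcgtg
Hk2: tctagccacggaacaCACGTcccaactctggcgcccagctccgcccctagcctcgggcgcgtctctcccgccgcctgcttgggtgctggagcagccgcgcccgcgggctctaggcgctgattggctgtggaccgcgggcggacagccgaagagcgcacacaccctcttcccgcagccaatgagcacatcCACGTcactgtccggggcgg
Slc2a1: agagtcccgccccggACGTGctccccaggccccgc

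Ldha held 5 matches, with both palindromes counted on each strand, between 160 and 15 bases before its start, and its level did not differ beyond the spread between libraries. Pgk1 and Hk2 held 2 each, and Slc2a1 held 1.

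The genes whose log2(normalised count + 1) over the 8 libraries was most like the mean z-score of the 10 glycolysis genes were Mettl9 (Pearson r = 0.98), Ssu72 (0.974), Rnaset2b (0.97), Evi2a (0.97) and Arf1 (0.969), out of 10875 genes compared. The 8 points share their library, its depth and its cell make-up, and both groups are pooled in them.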

How the data were processed

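RNA-seq libraries of 4 naive and 4 DMM mice were analysed from 1 table of estimated counts per gene. The authors made the deposited estimated counts by trimming reads with Trimmomatic, quantifying with Kallisto against a mouse transcriptome and summing to genes with tximport; 39.2% of the values are not whole. The submitters' processing notes name GRCh38, a human build, but the identifiers are those of mouse and the methods name GRCm38. The labels and the methods name different library kits, and strandedness was not given in the sources used here. Coordinates came from GENCODE vM21 (GRCm38), matched by gene identifier, and promoters from RefSeq.

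Estimated counts were rounded to whole numbers. DESeq2 1.42.0 (Wald test, median-of-ratios size factors, Benjamini-Hochberg adjustment over all genes tested) was the main test, in R 4.3.3, and edgeR 4.0.16 and limma 3.58.1 were alternatives, beside other scalings, filters and left-out libraries. The steps were tested on simulated data. Levels per kilobase used the longest principal transcript. In at least 1 library, 34824 of 50462 identifiers had an estimated count of 1 or more.

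All 10 members were named. Picked besides were the steps between them and isozymes averaging 50 or more normalised counts. Added to these were up to 4 further genes per list with the same minimum mean and an adjusted p of 0.05 or less. The 5 genes most like the members were also taken. Of the genes so picked, Eno2, Eno3, Adpgk, Pfkfb4, Rpia, Taldo1, Pygl, Gys1 and Gfpt1 are not described above. Among those, Pygl was called lower (log2 -0.62, adjusted p = 0.0012 by DESeq2) and no other was called. Slc2a12, whose mean is lower, Pdk2, Slc16a3, Gm4735 and the 3 neutrophil markers that overlapped fall outside this rule and were named after their values were seen. The members and lists were chosen with earlier results of these data known.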

Additional observations from a re-analysis of the deposited data

Results flagged for a closer look

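Ldha in naive library 2 stood apart from the other naive libraries, at 2357.4 normalised counts against 2105 to 2121 in naive libraries 1, 3 and 4. The gap to the nearest library was 0.937 of the group's range, past Dixon's 95% critical value for 4 samples. Of 72 groups of 4 values tested over the named genes, chance would give about 3.6 such values and 1 was found.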

How the results depend on the processing

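None of the 10 glycolysis genes was called under any alternative that kept the 1.5-fold threshold, including each left-out library (0 in all 8 fits). Without that threshold the count was 3, and for the 88 other genes of glucose metabolism it was 22 in place of 10. The number of the 10 past the adjusted p alone was 3 in the report and 2 to 4 with 1 library left out. It was 2 under total-count scaling (Pfkl and Pfkp, higher), where Hk1, Hk2 and Eno1 did not pass. It was again 3 (Hk1, Hk2 and Eno1) with the most abundant identifier left out of the total. When near-identical copies were summed it was 2, and Eno1 did not pass. Of 80 values for the 10 genes with a library left out, 77 kept direction and side of the threshold, 1 no longer passed the adjusted p, 1 newly passed it and 1 reversed (Ldha without DMM library 3, -0.0599; range over left-out libraries -0.0599 to 0.0991). Of 90 values under other alternatives, 83 kept both. The called count among the 88 was 5 under total-count scaling and 6 to 15 with 1 library left out, lowest without DMM library 1. Tpi1 turned to 1.578e-05 on the log2 scale under total-count scaling. The cause was not tested in any of these.

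Libraries with the same number did not deviate together (correlations -0.02, 0.1, -0.2 and 0.07). These correlations run over many genes at once and cannot decide whether libraries with the same number shared a batch. With a replicate block the called count of the 10 genes was 0 and of the 88 was 9, and 2 of the 10 and 18 of the 88 passed the adjusted p; Hk1 was at an adjusted p of 0.0503.

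Estimated counts carry no interval here, and with 4 animals a group a change of 1.16-fold such as that of Pfkl or Pfkp did not pass.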
